A study of Mus musculus with 6 samples.

Results

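The adenosine and purinergic signalling genes described here are Adora1, Adora2a, Adora2b, Adk, Nt5e, Entpd2, P2rx4, P2rx7, P2ry1 and Slc29a1. They were taken by gene symbol from a table of 16060 rows, and all 10 were found, with 1 row each. The table holds RNA-seq of the hippocampus (HIPP) of adult male C57BL/6 mice, with 1 library per mouse. The control group was 3 mice injected with saline, and the MA group was 3 mice given methamphetamine (MA), a psychostimulant, at doses that were raised from week to week. All mice went through anxiety tests just before the tissue was taken, so the controls carry that handling too. The mice that also received quercetin are not analysed here. Every direction below is that of the labels on the libraries, and no gene that the treatment targets can check them. There is reason for doubt: Fos, Egr1, Arc and Nr4a1, immediate early genes that neuronal activity switches on, were lower in each library labelled MA than in each library labelled Control, with differences of -1.61, -1.46, -1.80 and -1.45 on the log2 scale. The direction in the text of the study is the other one. It reports these genes as raised by MA, both in its RNA-seq and by qPCR on 3 samples from each group. If the labels or columns were exchanged, every direction below would turn. The study heads its list of these genes, with positive fold changes, as control against treated mice. Its RNA-seq contrast may therefore run the other way instead, in which case the labels would stand. Neither possibility was tested.

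Purinergic signalling is carried by nucleotides and adenosine outside the cell. ATP and ADP released by neurons and glia open ATP-gated channels (the P2rx genes) or act on G-protein-coupled receptors (the P2ry genes). Ectoenzymes on the cell surface then cut them to AMP and adenosine. Adenosine acts on its own G-protein-coupled receptors, crosses the membrane through nucleoside transporters and is turned back into AMP inside the cell by adenosine kinase. In the hippocampus, adenosine is best known for damping glutamate release through the receptor that Adora1 encodes, and it is the signal that caffeine blocks.

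The values are log2 of a length-normalized level (RPKM) plus 1, with the 1 inferred from a lowest value of exactly 0 in 5 of the 6 libraries. These 5 had 259 to 437 values at 0, while MA replicate 3 had 0 such values and a lowest value of 0.000206. Because they are per length, levels can be compared between genes. Without read totals, the depth behind a value is unknown. The library labelled MA replicate 3 stood apart, with a mean correlation of 0.978 with the other MA libraries across the 13321 tested genes, against 0.984 to 0.993 for the other 5 libraries with those of their own group. Results that rest on it are therefore also given without it. Of 12 hippocampal neuron markers, 11 were in the table and all 11 passed the filter on low values, with Neurod6 at 6.28 in the control and 5.85 in the MA libraries. Choroid plexus markers were also present and differed widely between the groups, as given beside the results below.

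Across all 6 libraries the 10 genes spanned a wide range of levels, and Adora1 and Adk led the order. Adora1 was highest, between 45.5 and 64.1 RPKM, which put its mean above 89.2% of the tested genes or level with them. Adk followed, between 28.7 and 33.8 RPKM. The range of Adora1 did not overlap that of Adk, and that of Adk did not overlap any lower gene. Slc29a1, between 7.17 and 13.5 RPKM, overlapped P2rx4, between 5.33 and 7.50. P2rx4 in turn overlapped Entpd2, between 4.34 and 6.43. P2rx7 and Adora2b overlapped each other, at 2.05 to 4.16 and 1.64 to 2.54 RPKM. At the bottom, P2ry1, Adora2a and Nt5e overlapped one another, with means of 0.995, 0.872 and 0.745 RPKM over the 6 libraries. All 10 genes were at or above the filter level of 0.5 RPKM in each of the 6 libraries, the lowest value being 0.528 RPKM for Nt5e.

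**Figure D1:**
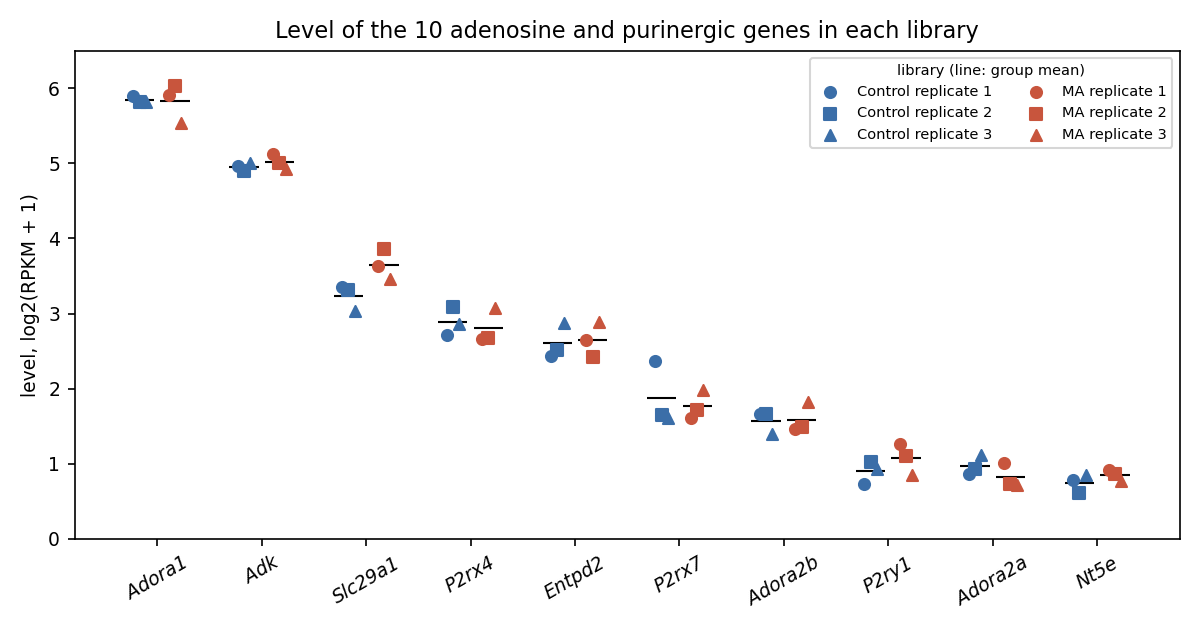
Level of each gene in each library, as log2(RPKM + 1), with the genes ordered by their mean over the 6 libraries. Blue symbols are Control and red symbols MA libraries, the symbol shape is the replicate number and the short line is the group mean. Only for Slc29a1 do the 3 MA libraries all lie above the 3 Control libraries.

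Promoter windows from RefSeq (GRCm38.p6, 250 bases before to 50 after a transcript start) were matched by symbol for 9 of the 10 genes, in 19 windows. They are shown for the most abundant gene, for the gene with the largest difference between the groups and for the receptor gene with the widest spread among control mice. Where a gene has several starts, the one farthest upstream is given. Capitals mark the GC box, GGGCGG on either strand. The windows are Adora1 at chr1:134235408-134235707 (minus strand), Slc29a1 at chr17:45599569-45599868 (minus strand) and P2rx7 at chr5:122643677-122643976 (plus strand).
Adora1: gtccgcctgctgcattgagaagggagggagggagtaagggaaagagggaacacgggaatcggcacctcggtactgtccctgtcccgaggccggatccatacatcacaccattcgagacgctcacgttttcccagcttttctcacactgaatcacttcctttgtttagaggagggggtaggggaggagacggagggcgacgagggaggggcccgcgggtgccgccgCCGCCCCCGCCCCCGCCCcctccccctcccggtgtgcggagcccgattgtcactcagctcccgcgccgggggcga
Slc29a1: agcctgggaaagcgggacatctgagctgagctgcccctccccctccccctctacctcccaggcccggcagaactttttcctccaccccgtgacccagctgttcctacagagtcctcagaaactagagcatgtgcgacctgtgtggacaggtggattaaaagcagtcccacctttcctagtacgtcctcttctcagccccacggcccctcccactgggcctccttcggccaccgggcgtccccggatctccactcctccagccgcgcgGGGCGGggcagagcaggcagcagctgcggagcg
P2rx7: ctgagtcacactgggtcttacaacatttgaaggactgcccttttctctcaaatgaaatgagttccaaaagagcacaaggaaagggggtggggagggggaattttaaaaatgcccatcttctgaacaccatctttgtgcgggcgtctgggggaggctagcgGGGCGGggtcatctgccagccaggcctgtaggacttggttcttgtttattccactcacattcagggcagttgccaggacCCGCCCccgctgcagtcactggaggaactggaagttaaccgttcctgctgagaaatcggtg

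Over its 8 windows, Slc29a1 had 0 to 5 GC boxes in each. Of the windows shown, that of Adora1 held 3 GC boxes in a row and 26 CpG dinucleotides, that of Slc29a1 held 1 GC box and 16 CpG, and that of P2rx7 held 2 GC boxes and 8 CpG. A GC box was found in 35.7% of all 32851 windows of this length, and the median window had 7 CpG. Neither the cAMP response element TGACGTCA (1.79% of all windows) nor the E-box CACGTG (7.15%) was found in these 3 windows, which says only that these letters are not there. Among the windows of Slc29a1 not shown, that at chr17:45595197-45595496 held 1 E-box. A match is a description of the letters and not of binding.

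Between the groups, no gene of the 10 passed an adjusted p-value of 0.05 (limma with Benjamini-Hochberg adjustment over 13321 genes), where 0.263% of all tested genes passed. An unadjusted limma p under 0.05 was reached by 1 of the 10, Slc29a1, where 10.4% of all tested genes reached it (4.99% higher and 5.46% lower in MA). The same gene was the only one of the 10 whose groups did not overlap, against 17.5% of all tested genes (7.32% higher and 10.2% lower in MA). The difference in level was positive in 6 of the 10 and negative in 4, with a median of 0.030 on the log2 scale, beside a median of -0.010 and 47.3% positive over all tested genes. With 10 genes, 1 gene is the smallest count above 0, so these counts do not stand out from the background. In bulk tissue, fewer cells of a type and less RNA per cell cannot be told apart. At 3 mice a group, the smallest two-sided p of an exact permutation test is 0.1.

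**Figure D2:**
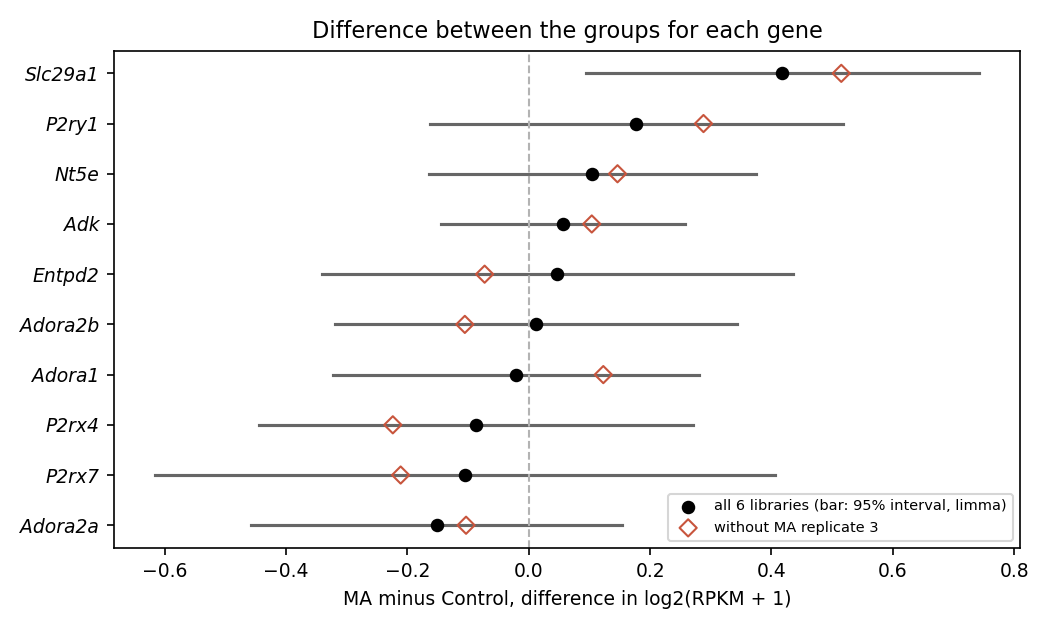
Difference between the group means (MA minus Control) for each gene in log2(RPKM + 1). Black points are from all 6 libraries with the 95% interval from limma as a bar, and red diamonds are the differences without MA replicate 3. The interval excludes 0 for Slc29a1 and includes it for the other 9 genes.

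Slc29a1 (ENSMUSG00000023942) encodes the equilibrative nucleoside transporter that carries adenosine across the cell membrane and is the target of dipyridamole. In GRCm38 it occupies 45585200 to 45599606 of chromosome 17, minus strand, where its exons overlap Gm17080 on the other strand. Its log2 level was 3.35, 3.31 and 3.03 in Control replicates 1, 2 and 3, and 3.63, 3.86 and 3.46 in MA replicates 1, 2 and 3. Each MA library lay above each control library, though the lowest MA library and the highest control library were close. The means were 3.23 ± 0.17 and 3.65 ± 0.20 (SD, n = 3 each), or 8.44 and 11.6 RPKM, a ratio of 1.38. The difference was 0.42 (standard error 0.14, 95% interval 0.09 to 0.74, unadjusted p = 0.0182 and adjusted p = 0.362 from limma). By exact permutation, the two-sided p was at its minimum of 0.1. The gene was thus not called. Under limma's sample quality weights, which gave MA replicate 3 a weight of 0.194 and the other libraries 0.937 to 2.45, the difference was 0.54 with an adjusted p of 0.0435, where 4.4% of all tested genes were called. Without MA replicate 3 the difference was 0.52 (adjusted p = 0.0864 from limma). Without Control replicate 3 or MA replicate 2 the unadjusted limma p was 0.0686 or 0.0645, so that no gene of the 10 then stayed under 0.05.

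Among the marker lists, only that of the choroid plexus had genes past the adjusted threshold. The summed level of 10 choroid plexus markers was 69.7 to 425 RPKM in the control and 1790 to 5090 RPKM in the MA libraries, with all 10 markers higher in MA and 5 of them past the adjusted threshold. All 10 thalamic markers had a higher mean in MA, though with overlapping sums of 30.9 to 43.1 RPKM in the control and 29.2 to 82.8 in the MA libraries. The sums of the 8 endothelial markers overlapped, at 223 to 264 and 245 to 306 RPKM, with all 8 higher in MA. Those of the 11 hippocampal neuron markers also overlapped, at 396 to 504 and 349 to 427 RPKM, with 10 of 11 lower in MA. The sums of 9 meningeal fibroblast markers did not overlap, at 22.4 to 27.3 and 29.1 to 43 RPKM, but without Dcn those of the other 8 did, at 15.7 to 19.8 and 17.9 to 19.6 RPKM. The choroid plexus sum was mostly Ttr, and without it the other 9 markers summed to 12 to 14.3 RPKM in the control libraries and to 41.4, 64.4 and 60.4 RPKM in MA replicates 1, 2 and 3. Within the MA group, Slc29a1 was highest in MA replicate 2, as was that sum without Ttr, and lowest in MA replicate 3, where the sum with Ttr was highest and the thalamic sum lowest. Ttr in MA replicate 3 was at 12.298 on the log2 scale, the highest value in each of the 6 libraries. The normalized scale thus shows nothing above it, and the top of the choroid plexus range rests on that value. The part of the cell types listed here in the Slc29a1 difference was not tested.

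**Figure D3:**
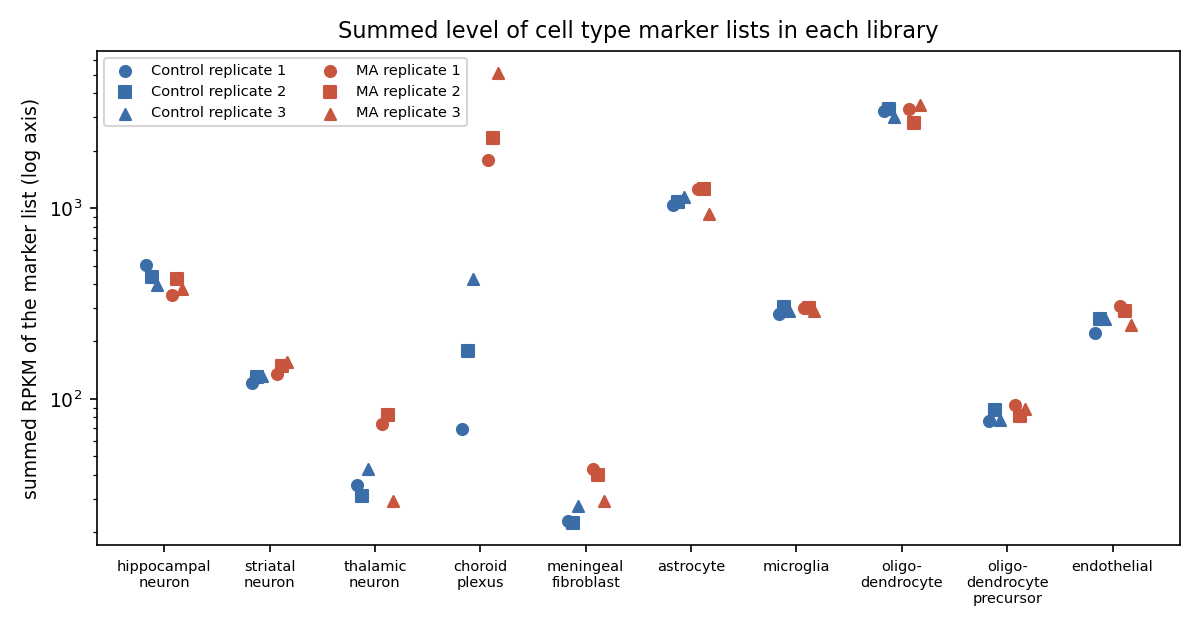
Summed level of each cell type marker list in each library, in RPKM on a log axis. Blue symbols are Control and red symbols MA libraries, and the shape is the replicate number. The choroid plexus sums are separated, at 69.7 to 425 RPKM in Control and 1790 to 5090 RPKM in MA, while those of microglia are close, at 279 to 305 and 288 to 300 RPKM.

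Adk, on chromosome 14 from 21052574 to 21448569, encodes adenosine kinase, the main route by which brain adenosine is removed, chiefly in astrocytes. Its log2 level was 4.97, 4.89 and 5.01 in the control libraries and 5.12, 4.999 and 4.92 in the MA libraries. The groups overlapped, and the difference of 0.057 (95% interval -0.14 to 0.26, adjusted p = 0.875 from limma) was within the spread of the MA libraries, whose SD was 0.10. Adk had the narrowest interval of the 10 genes. The sums of the 10 astrocyte markers were 1040 to 1140 RPKM in the control and 935 to 1270 in the MA libraries. Aldoc made up much of them, at 479 to 527 RPKM in the control and 488 to 583 in the MA libraries. Of the 10 markers, 3 had a higher and 7 a lower mean in MA. Within the MA group, the sum and Adk were both lowest in replicate 3. Within the control group, the sum was lowest in replicate 1 and Adk in replicate 2.

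The adenosine receptors did not separate the groups either. Adora1 (ENSMUSG00000042429), on chromosome 1 from 134199223 to 134235431 with exons that overlap Mybph on the other strand, encodes the inhibitory receptor that lowers cAMP and transmitter release. Its log2 level was 5.90, 5.82 and 5.82 in the control libraries and 5.91, 6.03 and 5.54 in the MA libraries. The control mice were thus close together, with an SD of 0.044, while the MA mice had an SD of 0.25 and took both the highest and the lowest place. The difference was -0.021 (95% interval -0.32 to 0.28, adjusted p = 0.975 from limma). Without MA replicate 3 its sign turned, to 0.12 (adjusted p = 0.322 from limma).

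Adora2a, on chromosome 10 from 75316877 to 75334784, encodes the receptor that raises cAMP and is known chiefly from the striatum, where it sits beside the dopamine receptor Drd2. Its log2 level was 0.87, 0.94 and 1.12 in the control libraries and 1.01, 0.73 and 0.72 in the MA libraries. Of the MA libraries, replicates 2 and 3 lay below all control libraries and replicate 1 among them. The difference was -0.15 (95% interval -0.46 to 0.15, adjusted p = 0.744 from limma). Striatal markers gave sums of 121 to 131 RPKM in the control and 135 to 156 in the MA libraries over 15 genes, of which 4 did not pass the filter, Drd2 among them. Of the 11 that passed, 6 had a higher and 5 a lower mean in MA. Ppp1r1b was the most abundant of the 15, at 41.6, 49.4 and 45.7 RPKM in the control and 46.9, 52.4 and 78.9 in the MA libraries. Much of the sum in MA replicate 3 was thus this gene, and sums without it are not given. The gap between the sums therefore cannot be read as a shift of the list as a whole. The part of striatal tissue in the Adora2a values was not tested.

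Adora2b, on chromosome 11 from 62248984 to 62266453, encodes a cAMP-raising receptor of low affinity for adenosine. The control libraries were at 1.66, 1.66 and 1.40 on the log2 scale and the MA libraries at 1.46, 1.48 and 1.82. The highest of the 6 values was that of MA replicate 3, and the difference was 0.012 (95% interval -0.32 to 0.34, limma adjusted p = 0.987), or -0.11 without that library. Of the RPKM summed over all adenosine receptor genes, Adora3 included, Adora1 made up 93.7% to 94.3% in the control libraries. It made up 95.1%, 96.1% and 92.2% in MA replicates 1, 2 and 3, above the control range in the first pair and below it in the last.

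Of the ectoenzymes, Entpd2 hydrolyses ATP to ADP and Nt5e, known as CD73, makes adenosine from AMP. Entpd2, on chromosome 2 from 25395874 to 25401321, shares exonic sequence with Npdc1 on the same strand, so its reads could be split. On the log2 scale it was at 2.44, 2.51 and 2.87 in the control and 2.65, 2.42 and 2.89 in the MA libraries. The groups covered nearly the same range, and the difference was 0.047 (95% interval -0.34 to 0.44, limma adjusted p = 0.95). Nt5e, on chromosome 9 from 88327197 to 88372092, was the lowest of the 10 genes, at 0.78, 0.61 and 0.85 in the control and 0.92, 0.87 and 0.77 in the MA libraries. Its difference was 0.10 (95% interval -0.17 to 0.37, limma adjusted p = 0.818). Without MA replicate 3 its groups no longer overlapped.

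The receptors for ATP and ADP did not separate the groups, and P2rx7 had the widest interval of the 10 genes. P2rx7 and P2rx4 are neighbours on chromosome 5 and on the same strand, from 122643911 to 122691432 and from 122707544 to 122729738, with 16111 bases between them. P2rx7 encodes a channel opened by high ATP and known for driving interleukin release from microglia. Its log2 level was 2.37, 1.65 and 1.61 in the control libraries and 1.61, 1.72 and 1.98 in the MA libraries. Control replicate 1 thus stood above all other libraries. The difference of -0.11 (95% interval -0.62 to 0.41, limma adjusted p = 0.914) became 0.14 without that library.

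P2rx4, a channel that opens at lower ATP and is also carried by microglia and neurons, was at 2.72, 3.09 and 2.86 in the control libraries and 2.66, 2.67 and 3.08 in the MA libraries. MA replicates 1 and 2 lay below every control library, and MA replicate 3 did not. The difference was -0.087 (95% interval -0.45 to 0.27, limma adjusted p = 0.9), or -0.22 without MA replicate 3 (limma adjusted p = 0.321). The ratio of P2rx4 to P2rx7 in RPKM was 1.34, 3.51 and 3.06 in Control replicates 1, 2 and 3 and between 2.33 and 2.6 in the MA libraries, so these neighbours did not keep a fixed ratio among the control mice. The 10 microglia markers had a median difference of -0.018, with 0 past the adjusted threshold. None had an unadjusted limma p under 0.05, beside 10.4% of all tested genes. The groups did not overlap for 2 of them, Siglech and Tmem119, both lower in MA, beside 17.5% of all tested genes.

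P2ry1, on chromosome 3 from 61002795 to 61008982, encodes an ADP receptor that releases calcium from stores, and its exons overlap Gm37035 on the other strand. In log2 units it was at 0.73, 1.02 and 0.94 in the control libraries and 1.27, 1.10 and 0.85 in the MA libraries. MA replicates 1 and 2 were above every control library and MA replicate 3 was among them. The difference of 0.18 (95% interval -0.16 to 0.52, limma adjusted p = 0.733) was next in size to that of Slc29a1 and was 0.29 without MA replicate 3 (limma adjusted p = 0.254).

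The gene-by-gene values share a feature. Within the MA group, MA replicate 3 was the extreme library for all 10 genes, the highest for Adora2b, Entpd2, P2rx4 and P2rx7 and the lowest for the other 6. Among all tested genes it was the extreme MA library for 83.4%. For the other libraries within their own group, the count over the 10 genes ran from 3 to 8. The median distance of MA replicate 3 from the mean of the other MA libraries was 0.33 on the log2 scale over the 10 genes and 0.23 over all tested genes. Without it, the groups did not overlap for 5 of the 10 genes, with Slc29a1, Adora1, P2ry1 and Nt5e higher and P2rx4 lower in MA, beside 42.9% of all tested genes. Of these 5, none passed an adjusted p of 0.05 in limma, where 1.93% of all tested genes did, and only Slc29a1 had an unadjusted p under 0.05, beside 23.3% of all tested genes.

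**Figure D4:**
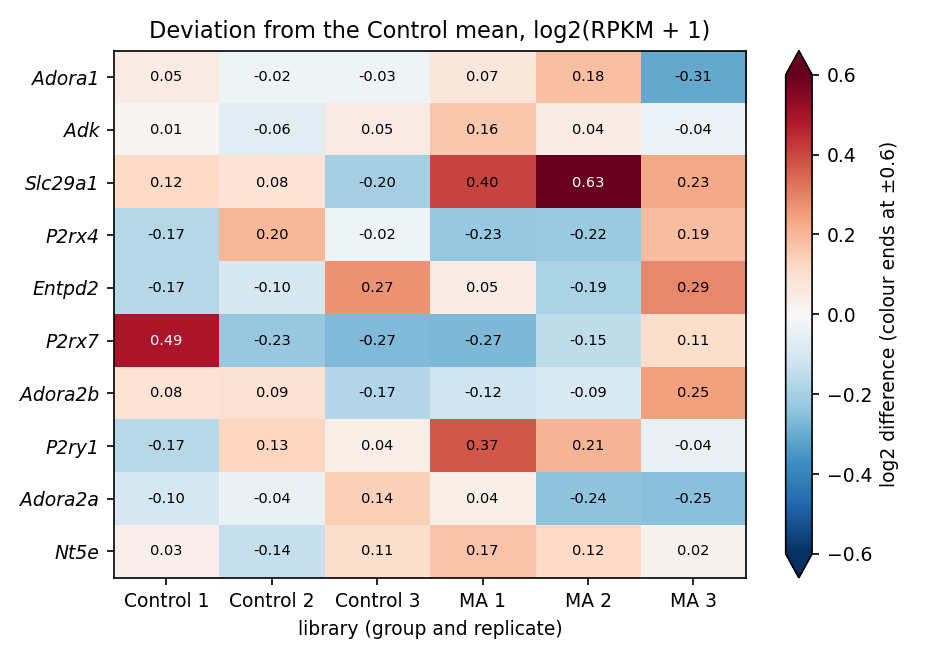
Deviation of each library from the mean of the 3 Control libraries, in log2(RPKM + 1), for the 10 genes (rows, by level) and 6 libraries (columns). Red is above and blue below the Control mean, and each cell prints its value. Slc29a1 is above it in all MA libraries, P2rx7 stands out in Control replicate 1, and MA replicate 3 differs in sign from MA replicates 1 and 2 for Adora1, Adk, P2rx4, P2rx7, Adora2b and P2ry1.

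Among the 45 pairs of the 10 genes, Pearson's r over the 6 libraries was positive in 21 and negative in 24, with a median of -0.050. The highest was 0.881, for Adk and Nt5e, and the lowest was -0.800, for P2rx7 and P2ry1. Adora1 and P2rx4 gave -0.791. These values describe 6 shared libraries, in 1 of which the genes were all extreme, and have no test.

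Beyond the 10 genes, 72 further genes of purine signalling were listed by role. Of these, 67 were in the table and 56 passed the filter. Among the 56, 1 passed the adjusted threshold and 4 had an unadjusted limma p under 0.05, 3 higher and 1 lower in MA. Both shares are to be read beside the 0.263% and 10.4% of all tested genes, and the median difference of the 56 was 0.024. The list overlaps the marker lists in Gja1, P2ry12, Adcy5 and Gnal.

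**Figure D5:**
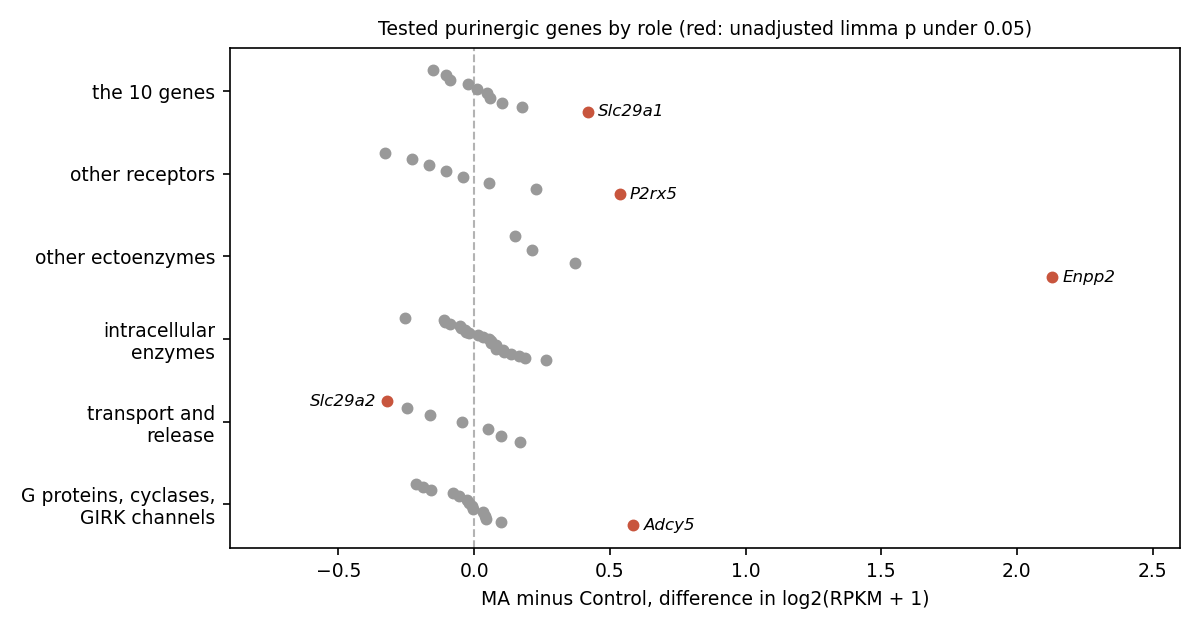
Difference between the groups (MA minus Control, log2(RPKM + 1)) for the 10 genes and the 56 other tested purinergic genes, 1 point per gene, in rows by role. Red points have an unadjusted limma p under 0.05 and are named. Enpp2 lies apart at 2.13, and the other points lie between -0.33 and 0.59.

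Enpp2 rose in the libraries labelled MA, a direction that rests on those labels. It encodes a secreted enzyme of a family that hydrolyses nucleotides, also called autotaxin, which is best known for making lysophosphatidic acid and is abundant in choroid plexus epithelium. Levels on the log2 scale were 5.12, 5.38 and 5.81 in the control libraries and 7.22, 7.68 and 7.79 in the MA libraries. All MA libraries were far above all control libraries, with a difference of 2.13 (standard error 0.21, 95% interval 1.65 to 2.61, adjusted p = 0.0244 from limma). The choroid plexus sums given above moved with it, and 9 of those 10 markers also had groups that did not overlap. Their part in the Enpp2 difference was not tested. The call was lost with no filter (adjusted p = 0.0614) and without any 1 of Control replicates 1, 2 and 3 or MA replicate 2, at limma adjusted p-values of 0.0766 to 0.105.

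The remaining nucleotide receptors were led by P2rx5, which encodes another ATP-gated channel. The gene was at log2 levels of 0.62, 0.63 and 0.95 in the control libraries and 1.27, 1.25 and 1.29 in the MA libraries, with no overlap. The difference was 0.54 (95% interval 0.24 to 0.83, unadjusted p = 0.00322 and adjusted p = 0.219 from limma), at a low level of 0.673 and 1.41 RPKM. With a pseudocount of 0.1 in place of the offset the difference was 1.00. Adora3, the fourth adenosine receptor gene, was at 0.66, 0.70 and 0.91 in the control and 0.38, 0.18 and 0.74 in the MA libraries, with a difference of -0.33 (adjusted p = 0.560 from limma). Its exons overlap Tmigd3 on the same strand. The microglial ADP receptor P2ry12 had a difference of -0.23 (adjusted p = 0.660 from limma) with overlapping groups.

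Among transporters and release channels, Slc29a2 encodes the second equilibrative nucleoside transporter and was lower in each MA library. It was at 2.56, 2.61 and 2.54 in the control and 2.36, 2.08 and 2.29 in the MA libraries. The difference was -0.32 (95% interval -0.57 to -0.07, unadjusted p = 0.0194 and adjusted p = 0.370 from limma). Set beside Slc29a1, which had the opposite sign, the ratio of Slc29a1 to Slc29a2 in RPKM was 1.88, 1.75 and 1.49 in the control libraries and 2.76, 4.18 and 2.55 in the MA libraries. This ratio was formed after its values were seen and has no test. The channels Panx1, Panx2, Lrrc8a and Gja1, through which ATP can leave cells, each had an adjusted limma p of at least 0.684.

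Of the G proteins, cyclases and channels that these receptors act on, Adcy5, an adenylyl cyclase known from the striatum, was at 3.06, 3.51 and 3.47 in the control and 4.14, 4.12 and 3.53 in the MA libraries. The difference was 0.59 (95% interval 0.13 to 1.05, unadjusted p = 0.0191 and adjusted p = 0.370 from limma), and MA replicate 3 lay close to the highest control library. Adcy5 is itself one of the 15 striatal markers. The 23 intracellular enzymes of purine conversion had differences between -0.26 and 0.26, with 0 past the adjusted threshold and 0 at an unadjusted limma p under 0.05. Entpd7 had the smallest p of these, with a difference of -0.26 (adjusted p = 0.564 from limma). Entpd1, known as CD39 and the partner of Nt5e in making adenosine, was at 2.21, 2.21 and 2.13 in the control libraries and at 3.97, 1.95 and 1.76 in MA replicates 1, 2 and 3. MA replicate 1 thus stood well above the other 5 libraries and the others of its group lay below every control library.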

How the data were processed

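RNA-seq of 3 Control and 3 MA hippocampi was used. The paper's methods name Hisat2 for alignment, featureCounts for counting and FPKM as the unit. The submitters' processing notes instead name Bowtie 0.12.2 and the builds mm8 and mm9, so the aligner and build are uncertain. The values the authors deposited carry the name RPKM but run on a log scale, read as log2, with 1 highest value (12.298) in all 6 libraries, so a normalization between libraries had been applied. All 6 value columns were matched by name.

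Genes that reached 0.5 RPKM (2 to the power of the value, less 1) in 3 or more libraries (13321 of 16060) were tested with limma 3.58.1 in R 4.3.3 (lmFit, eBayes with trend, no covariate). On 10 simulated tables of 13321 genes with 200 genes shifted by 1 log2 unit, the median share recovered was 77.2% and 5.5% of calls were false. The largest difference among the 10 genes was 0.42, for Slc29a1. Recovery of shifts that small was not simulated. The 10 genes, the other purinergic genes and the marker lists were chosen with earlier results of these data known. All 10 are named, along with other listed genes with an unadjusted p under 0.05 or the smallest p of their role, and the 3 genes closest in pattern to each. Adora3, P2ry12, Entpd1, the release channels and the immediate early genes were named after their values were seen. Locations are from GENCODE M21 (GRCm38) and are given for orientation. Motifs were searched on both strands. Alternatives were 2 pseudocounts, 2 filters, 2 normalizations, no trend, sample quality weights, a replicate block and leaving out each library. The 2 normalizations, median centring and quantile normalization, had little left to change, because the deposited values were already normalized between libraries. The Slc29a1 difference of 0.4181 became 0.4165 and 0.4172, so the same result under these 2 says little about its stability.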

Additional observations from a re-analysis of the deposited data

How the results depend on the processing

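No gene of the 10 was called under 14 of the 15 alternatives, and 1, Slc29a1, was called with sample quality weights, where 3 other purinergic genes (P2rx5, Enpp2 and Adcy5) were called and 13 of 56 had an unadjusted p under 0.05, beside 4.4% and 26.3% of all tested genes. The count of other purinergic genes at an unadjusted p under 0.05 was 4 in the fit reported and 2 under a mean of at least 5. That filter left out P2rx5 and Slc29a2, while Enpp2 and Adcy5 stayed under 0.05. With no filter, 0 of the other purinergic genes were called, while 4 had an unadjusted limma p under 0.05. With sample quality weights the differences of Adora1, Adora2b and Entpd2 turned to 0.13, -0.092 and -0.093. MA replicate 3 had the lowest weight, 0.194, and without that library these differences were 0.12, -0.11 and -0.073. The cause of the turn was not tested.

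Leaving out each library in turn gave 0 to 1 of the 10 genes at an unadjusted p under 0.05, 1 to 5 without overlap between the groups, 0 to 1 other purinergic genes called and 2 to 11 at an unadjusted p under 0.05. The highest counts, 5 and 11, came without MA replicate 3. In that fit 42.9% of all tested genes had no overlap and 23.3% had an unadjusted limma p under 0.05. All these leave-one-out fits have fewer samples. The differences that changed sign among them ranged from -0.12 to 0.12 for Adora1, -0.11 to 0.078 for Adora2b, -0.073 to 0.18 for Entpd2, -0.22 to 0.012 for P2rx4 and -0.24 to 0.14 for P2rx7. Those of Slc29a1 stayed between 0.31 and 0.52. The sign of Slc29a1, Adk, Nt5e, P2ry1 and Adora2a was the same under every alternative that could be fitted. A mean of at least 5 left out P2rx7, Adora2b, P2ry1, Adora2a and Nt5e.

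The groups share replicate numbers, but the deviations of same-numbered libraries correlated at -0.197, -0.242 and -0.337, and 0 of 6 libraries were closest to their own number. With the replicate block, 0 of the 10 genes and 1 other purinergic gene (Enpp2) were called, and Slc29a1 had an unadjusted limma p of 0.0147 and an adjusted p of 0.636. The block changed no other call of the genes named, while the unadjusted limma p of Slc29a2 moved to 0.0568. Differences of low genes such as P2rx5 depend on the pseudocount, and without read totals the counting error of the lowest genes is unknown.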

Other observations

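For each of the 10 genes, the 3 tested genes with the most similar pattern over the 6 libraries reached Pearson's r between 0.967 and 0.998. With 6 libraries such values are common, and between 48 and 528 tested genes had an r over 0.9 with any given one of the 10. Slc29a1 was closest to Ipp, Tbc1d4 and Cpne6, and Adk to Tex261, Maoa and Ppt1. Maoa encodes a monoamine oxidase. Adora1 was closest to Pls3, Dram2 and Zfp935, Adora2a to Usp37, Grm3 and Nova1, and Adora2b to Ttll3, Vars and Ubald1. Grm3 encodes a metabotropic glutamate receptor. Entpd2 was closest to H2-T22, Asb16 and Ilk, and Nt5e to Ctnnbip1, Tcp1 and Rnmt. P2rx4 was closest to Cic, Gsn and Cuta, P2rx7 to Spaca6, Ttc7 and Cdc7, and P2ry1 to Rxra, Fam185a and Acox3.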
